A study of Mus musculus with 8 samples.

Results

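The genes of sterol and fatty acid synthesis were followed in mouse L929 fibroblasts exposed to interferon-β, with and without an introduced IRF8. The set was fixed by gene symbol and held 28 genes, 20 in a sterol arm and 8 in a fatty acid arm. Of these, 25 genes had a probe on the array, out of 16593 genes with a probe annotated to a single symbol. The sterol arm kept 17 of its 20 genes and the fatty acid arm all 8; Acat2, Mvk and Fdft1 had no probe under their symbol. Where a gene had several probes, the probe with the highest mean over the 8 arrays stood for it.

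L929 is an established mouse fibroblast line, and IRF8 is a transcription factor of the interferon regulatory family, best known from myeloid and B cells. The 8 Illumina bead arrays formed 4 groups of 2: L929 cells with no ectopic IRF8, untreated; the same cells given 1000 U/ml interferon-β (IFNβ) for 4 h; L929 cells ectopically expressing IRF8 (L929IRF8), untreated; and L929IRF8 cells given the same dose for the same time. All cells grew in the same serum-containing medium. The labels call the 2 replicates independent but do not say what was repeated, how IRF8 was introduced, whether L929IRF8 is 1 clone, or whether the control cells carried an empty vector, so p-values measure only the spread between these arrays. The single Irf8 probe read between -2.3 and 7.8 intensity units, below background on all 8 arrays, so the line labels could not be checked on the array and L929IRF8 below means the arrays labelled so. What part of the Irf8 transcript the construct holds was not tested.

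Intensities were background-subtracted and can be negative. The lowest deposited value lay 23.7 units below 0, and this distance was used as the background bound. Among the genes, 23 of the 25 measured had a mean above the bound, 16 in the sterol arm and 7 in the fatty acid arm, and 22 were above it on every array. Stard4, a carrier of cholesterol between membranes, read -17.0 to -3.3, and Fasn, the fatty acid synthase that builds palmitate, read 8.5 to 33.1, so neither was above the bound in its mean. Tm7sf2, a sterol reductase, straddled it, between 16 and 39.6 units. Of the interferon-stimulated genes used to check the treatment, 6 of the 8 on the array rose in both lines, Isg15 by 7.56 ± 0.19 log2 units (SE) in L929 and 7.10 ± 0.19 in L929IRF8 (limma adjusted p = 0.000716 and 0.000895). Ch25h, whose enzyme makes the oxysterol 25-hydroxycholesterol, read -15.8 to 2.6, below the bound on all 8 arrays. Of the fibroblast markers on the array, 7 of 11 were above the bound, among them Col1a1, Col1a2, Col3a1 and Vim, while Thy1, Lum, Dcn and Postn were not. Adipocyte markers were above it for Lpl and Pparg but not for Adipoq, Fabp4, Plin1, Cidec or Lep. Their summed level was 10370 to 13750 units on untreated and 10520 to 14090 on IFNβ-treated L929 arrays, and 10080 to 13860 and 11350 to 16520 in L929IRF8. Most of that sum was Lpl. Pparg, the transcription factor of fat cell differentiation, was lower on every IFNβ array in both lines, at 1928 and 1738 units against 1378.5 and 1340.3 in L929 and 1791 and 1888 against 1307 and 1407 in L929IRF8; its part in the results was not tested. Of the myeloid markers 2 of 6 were above it, Lyz2 and Cd14. The only marker list whose arrays were apart between treatments in both lines was that of epithelial and endothelial cells (64 to 71 against 91.5 to 95.5 units in L929, 71.1 to 76.2 against 82.6 to 92.5 in L929IRF8), in which Kdr alone of 6 genes was above the bound; its part in the results was not tested.

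Cholesterol is built from acetyl-CoA through mevalonate and squalene, and fatty acids from the same acetyl-CoA through malonyl-CoA. Both arms are under SREBP transcription factors. Scap escorts the SREBPs out of the endoplasmic reticulum when sterols are low and Insig1 holds them back when sterols are high. The product of Srebf2 acts mainly on sterol genes and that of Srebf1 mainly on fatty acid genes. Fibroblasts in culture are a classical system for this feedback.

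IFNβ was the first comparison: which of these genes differ after 4 h of treatment, in each line. No gene of either arm passed in L929 (0 of 25 with a limma adjusted p under 0.05, against 1.28% of all 25697 probes) or in L929IRF8 (0 of 25, against 1.07%). At an unadjusted limma p under 0.05, 4 of 25 genes differed in L929, all lower (Acly, Lpin1, Elovl6 and Insig1), where 9.88% of all probes did so in either direction and 5.53% were lower. In L929IRF8 there were 2 of 25, Lpin1 and Acly, both lower, against 9.78% of all probes and 5.63% lower. In RNA from whole cultures, fewer cells with a transcript and less of it per cell cannot be told apart. The arms had different medians, a difference that was not tested. In the fatty acid arm the median log2 change over its 8 genes was -0.26 in L929 and -0.29 in L929IRF8, with 7 of 8 changes below 0 in each line. In the sterol arm it was -0.05 and 0.00 over 17 genes, with 11 and 9 below 0. Over all 16593 genes the median was -0.01 in both lines, and over the 7693 genes above the bound -0.08 in both. Changes below 0 made up 50.8% of all genes in L929 and 62.3% in L929IRF8. Among genes above the bound they made up 63.8% and 65.0%. Of the 7 fatty acid genes above the bound, 6 were below 0 in each line. Without untreated L929IRF8 replicate 1 the fatty acid median in L929IRF8 was -0.13, and without replicate 2 of that group -0.43. Without untreated L929 replicate 1 the L929 median was -0.40.

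**Figure D1:**
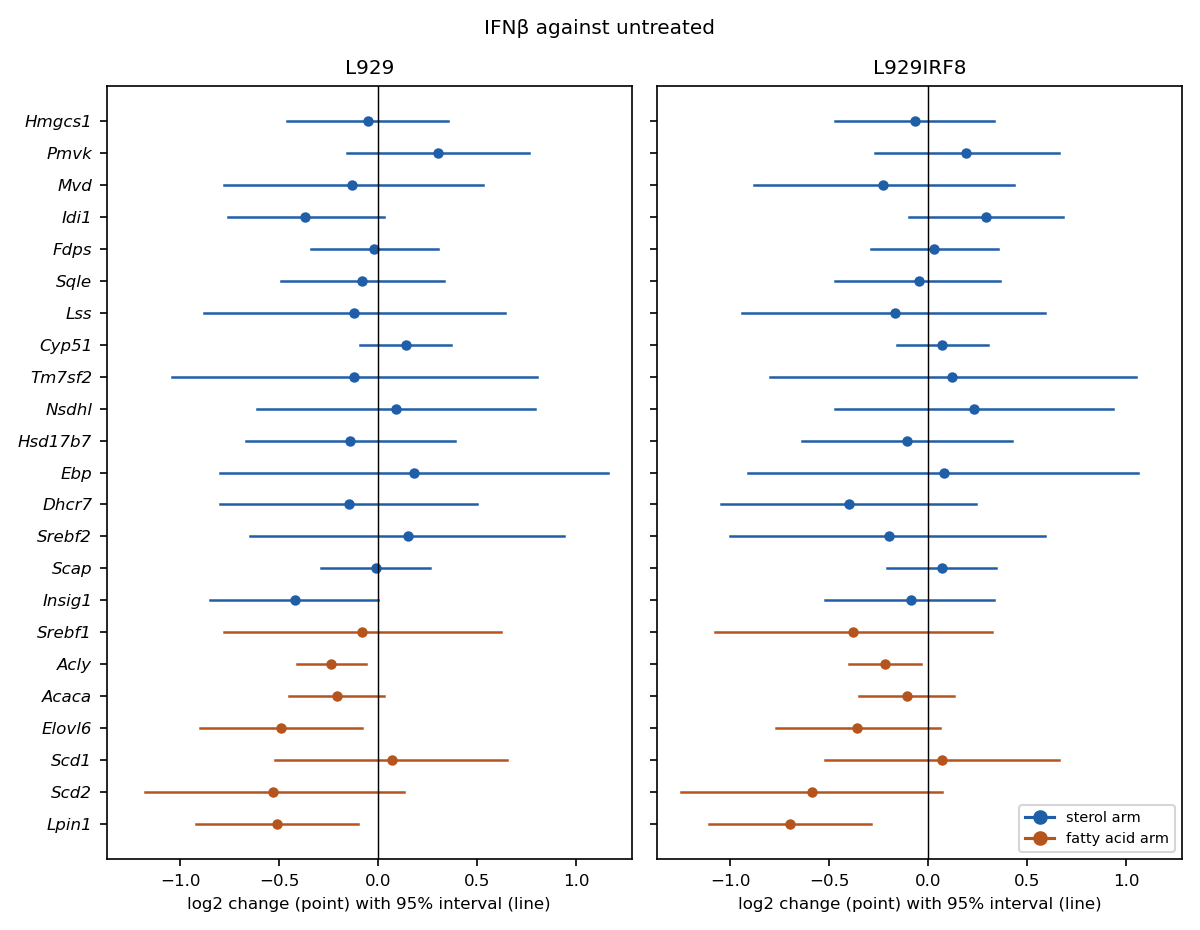
Log2 change with IFNβ against untreated for the 23 genes above the background bound, in L929 (left) and L929IRF8 (right). Points are limma coefficients (2 arrays a group), lines their 95% intervals; blue marks the sterol arm and orange the fatty acid arm. Acly, Elovl6, Scd2 and Lpin1 lie left of 0 in both panels, at -0.22 to -0.70, while most sterol genes lie near 0.

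Within the set, the fatty acid enzymes held the genes whose arrays separated by treatment in the same direction in both lines. On Acly, Elovl6, Scd2 and Lpin1 every IFNβ array was below every untreated array of the same line. That was 4 of the 7 fatty acid genes above the bound and 0 of the 16 sterol genes above it, where 14.4% of all 7693 genes above the bound did so. The adipocyte marker Pparg, given above, was among the genes that did so. The 2 comparisons use different arrays, but same-numbered replicates deviated together across groups (correlations 0.481 to 0.559). Whether the lines are independent was not tested. In L929 alone 5 of the 7 were lower without overlap, against 29.0% of genes above the bound, and in L929IRF8 4 of 7, against 26.7%. On the probe standing for it, no gene of either arm was higher without overlap in both lines, where 6.97% of genes above the bound were. A dimmer Nsdhl probe above the bound, ILMN_2594521, was higher in this way, as given below. Lower readings without overlap in both lines did not extend to most further genes of the same pathways, taken up below. Of the 20 above the bound, 1 was lower without overlap in both lines (5.0%), the sterol gene Sc5d. Another 1 was higher, Npc2. By sign alone, 65.0% of the changes of these 20 genes were below 0 in L929 and 80.0% in L929IRF8. Over all genes above the bound the shares were 63.8% and 65.0%.

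The promoters of 3 of these 4 genes are shown because their arrays separated by treatment in both lines; Scd2 was not matched. Sequences are RefSeq, GRCm38.p6, 250 bases before to 50 after the annotated start, read 5′ to 3′ on the gene's strand. Capitals mark matches to the searched motifs on either strand: the sterol regulatory element core TCACNCCAC, the CCAAT box CCAAT (read as ATTGG on the other strand), the E-box CACGTG and the interferon response element core (GAAA, any 2 bases, GAAA). Matches could overlap each other. Acly lies at chr11:100527951-100528250 on the minus strand, Elovl6 at chr3:129532136-129532435 on the plus strand and Lpin1 at chr12:16610917-16611216 on the minus strand.
Acly: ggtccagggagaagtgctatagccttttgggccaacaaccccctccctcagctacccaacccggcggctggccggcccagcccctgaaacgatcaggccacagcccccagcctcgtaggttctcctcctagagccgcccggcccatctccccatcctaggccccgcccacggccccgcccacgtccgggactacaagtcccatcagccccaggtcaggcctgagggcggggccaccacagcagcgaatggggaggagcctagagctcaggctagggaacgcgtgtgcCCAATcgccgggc
Elovl6: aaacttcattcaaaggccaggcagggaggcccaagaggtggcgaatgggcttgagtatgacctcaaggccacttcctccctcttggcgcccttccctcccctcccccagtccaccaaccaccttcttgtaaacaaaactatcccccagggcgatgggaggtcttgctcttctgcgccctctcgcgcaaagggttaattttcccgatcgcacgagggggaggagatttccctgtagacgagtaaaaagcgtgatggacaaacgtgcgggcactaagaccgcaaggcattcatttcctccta
Lpin1: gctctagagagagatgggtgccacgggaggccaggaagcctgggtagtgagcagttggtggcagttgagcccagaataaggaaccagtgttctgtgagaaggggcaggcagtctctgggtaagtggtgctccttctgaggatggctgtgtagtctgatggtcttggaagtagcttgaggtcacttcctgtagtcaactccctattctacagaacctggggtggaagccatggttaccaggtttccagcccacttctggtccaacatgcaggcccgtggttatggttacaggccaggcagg
Only a CCAAT match, at bases 38 to 42 after the start of Acly, was found in these 3 windows. Over all genes of the set, 22 of 28 matched the promoter table, with 28 windows. A CCAAT match stood in 18 of these 28 windows, against 37.4% of the 32851 windows of the table. By gene it was 17 of 22, against 41.1% of 27025 genes. The E-box stood in 5 of 28 windows, against 7.15%, and in 4 of 22 genes, against 8.09% of genes. Of those windows, 2 were overlapping windows of Scap that held the same site. The interferon response element core stood in 1 of 28 windows (Ebp), against 3.44%. A match says only that these letters are in the window.

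**Figure D2:**
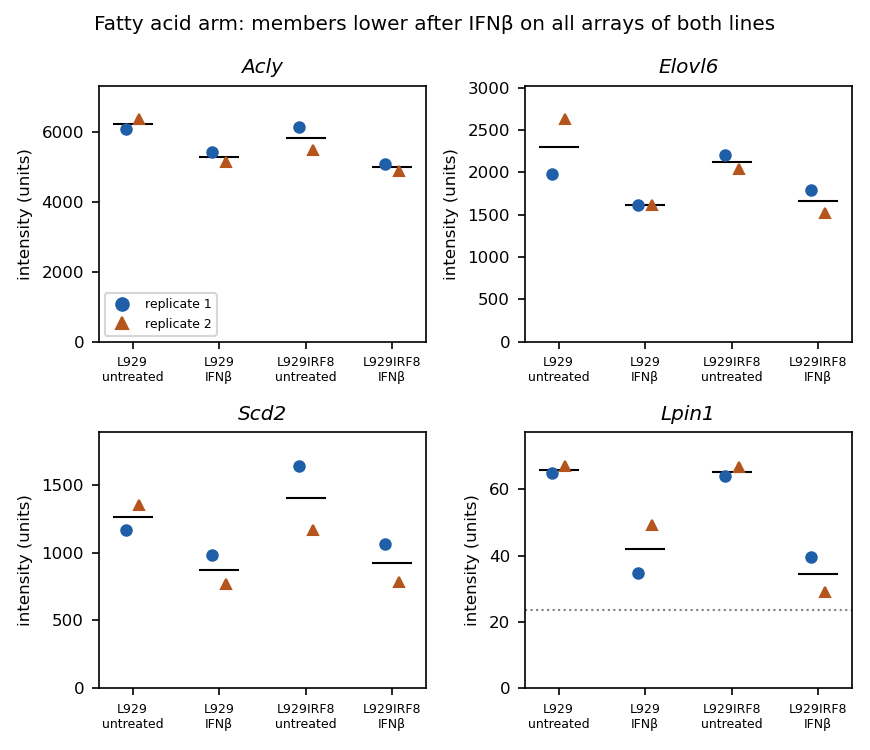
Deposited intensity (units, linear axis from 0) of fatty acid genes on each of the 8 arrays, by group; circles are replicate 1, triangles replicate 2, bars the group mean of 2 arrays, and a dotted line the background bound where it is in range. Acly, Elovl6, Scd2 and Lpin1 show both IFNβ arrays under both untreated arrays in each line.

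Acly, ATP citrate lyase, makes the cytosolic acetyl-CoA that feeds both arms. Its probe (ILMN_1240770) read 6084 and 6358 units on the untreated L929 arrays and 5413 and 5148 after IFNβ, and in L929IRF8 6146 and 5482 against 5071 and 4895. The treated arrays were lower in both lines, and the nearest pair in L929IRF8 were 5482 and 5071. The means were 6221 ± 194 and 5280 ± 187 in L929 and 5814 ± 470 and 4983 ± 125 in L929IRF8 (SD, n = 2 each). The change was 1.18-fold in L929 (log2 -0.24 ± 0.07 SE, limma adjusted p = 0.329) and 1.16-fold in L929IRF8 (-0.22 ± 0.07, limma adjusted p = 0.379), and neither passed.

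Lpin1, a phosphatidate phosphatase of glycerolipid synthesis that also acts as a transcriptional coregulator, had the lowest log2 change of the 25 genes in L929IRF8. Its probe ILMN_3111744 read 64.8 and 67.0 units on untreated L929 arrays and 34.8 and 49.1 after IFNβ. In L929IRF8 it read 64 and 66.6 against 39.6 and 29.0. The 4 untreated arrays lay within 3 units of each other and all 4 treated arrays were lower, close to the background bound. The change was 1.59-fold in L929 (log2 -0.51 ± 0.16 SE, limma adjusted p = 0.370) and 1.93-fold in L929IRF8 (-0.70 ± 0.16, limma adjusted p = 0.218). The other 2 Lpin1 probes were below the bound on average and give no second reading.

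Elovl6, the elongase that takes palmitate to stearate, read 1979 and 2624 units on untreated L929 arrays and 1616 and 1618 after IFNβ, and in L929IRF8 2207 and 2037 against 1789 and 1525. All 4 treated arrays were under all 4 untreated arrays. The log2 change was -0.49 ± 0.16 (SE) in L929, 1.41-fold lower, and -0.36 ± 0.16 in L929IRF8, 1.28-fold lower (limma adjusted p = 0.398 and 0.609).

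Scd2, a stearoyl-CoA desaturase that makes monounsaturated fatty acids, read 1167 and 1354 units on untreated L929 arrays and 982 and 766 after IFNβ. In L929IRF8 it read 1639 and 1167 against 1062 and 786. Within each line the groups were apart, but the untreated L929IRF8 arrays differed from each other by more than the nearest treated and untreated arrays did. The log2 change was -0.53 ± 0.25 in L929 and -0.59 ± 0.25 in L929IRF8, 1.45-fold and 1.51-fold lower (limma adjusted p = 0.665 and 0.583).

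The remaining fatty acid genes showed no such split in both lines. Acaca, the acetyl-CoA carboxylase that makes malonyl-CoA, read 2336 and 2395 units against 2083 and 2006 in L929, without overlap, and 2429.8 and 2284 against 2377 and 1994 in L929IRF8, where 1 treated array was above 1 untreated array. Its log2 changes were -0.21 ± 0.09 and -0.11 ± 0.09 (SE). Scd1, the desaturase related to Scd2, overlapped in both lines: 7591 and 8706 against 9359 and 7744 in L929, and 8793 and 7256 against 10056 and 6977 in L929IRF8. Its log2 change was 0.07 ± 0.22 in each. The difference between Scd1 and Scd2 was not tested. Srebf1 read 183 and 142 against 168 and 137 in L929 and 231 and 157 against 170.1 and 119 in L929IRF8, overlapping in both, with log2 changes of -0.08 ± 0.27 and -0.38 ± 0.27. Fasn stayed around background, at 11.8 and 30.4 against 8.5 and 19.9 units in L929 and 33.1 and 17.5 against 13.5 and 27.5 in L929IRF8, and no fold is given.

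Because the same genes were lower in both lines, the IFNβ change averaged over the lines was added after the values were seen, in the same limma fit. It called 0 of the 25 genes (2.21% of all probes, 0.72% lower) and 4 at an unadjusted p under 0.05, against 12.9% of all probes and 7.97% lower. Those 4 were Lpin1 (log2 -0.61 ± 0.11 SE, limma adjusted p = 0.0933), Acly (-0.23 ± 0.05, limma adjusted p = 0.127), Elovl6 (-0.42 ± 0.11, limma adjusted p = 0.201) and Scd2 (-0.56 ± 0.18, limma adjusted p = 0.290). With the fit limited to the 11411 probes above the bound, Lpin1 passed at a limma adjusted p of 0.0304, where 6.09% of probes passed and 1.95% were lower. With the replicate block added to that filter Lpin1 and Scd2 passed, at 0.0179 and 0.0347, where 12.3% of probes passed and 6.34% were lower. Over all alternatives the adjusted p ranged from 0.0179 to 0.217 for Lpin1, 0.0347 to 0.501 for Scd2, 0.0687 to 0.275 for Acly and 0.0639 to 0.376 for Elovl6. Since the arrays of these 4 genes did not overlap, their changes taken replicate by replicate must be below 0 in both lines. The log2 change of Lpin1 was -0.67 and -0.35 in L929 and -0.52 and -0.88 in L929IRF8 for replicates 1 and 2. That of Elovl6 was -0.29 and -0.69, and -0.30 and -0.41, in the same order.

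In the sterol arm the groups stayed close. The promoters of Hmgcs1 and Idi1 are shown as the gene with the only match to the sterol regulatory element core among the 22 genes searched and the only gene of the set above the bound whose arrays separated by treatment in opposite directions in the lines. Hmgcs1 lies at chr13:119690101-119690400 and Idi1 at chr13:8885356-8885655, both GRCm38.p6 and on the plus strand, with the same window and capitals as above.
Hmgcs1: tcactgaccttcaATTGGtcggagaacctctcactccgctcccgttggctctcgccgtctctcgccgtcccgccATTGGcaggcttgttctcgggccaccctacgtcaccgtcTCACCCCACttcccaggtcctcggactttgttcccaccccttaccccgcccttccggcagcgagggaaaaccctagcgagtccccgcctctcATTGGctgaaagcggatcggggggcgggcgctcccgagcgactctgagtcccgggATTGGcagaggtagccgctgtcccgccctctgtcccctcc
Idi1: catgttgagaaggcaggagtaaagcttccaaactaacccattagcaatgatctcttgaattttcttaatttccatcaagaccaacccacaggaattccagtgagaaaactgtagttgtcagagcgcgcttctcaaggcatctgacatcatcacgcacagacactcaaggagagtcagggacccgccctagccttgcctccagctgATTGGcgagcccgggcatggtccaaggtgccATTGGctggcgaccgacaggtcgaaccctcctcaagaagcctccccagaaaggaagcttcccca
The Hmgcs1 window held TCACCCCAC at bases -137 to -129 and 4 CCAAT matches. The core was found in 1 of 28 windows of the set, against 1.24% of all windows. The Idi1 window held 2 CCAAT matches and no match to the other 3 motifs.

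Hmgcs1, the synthase that joins acetyl-CoA and acetoacetyl-CoA at the head of the mevalonate pathway, read 8229.6 and 10318 units on untreated L929 arrays and 7955 and 9895 after IFNβ, and in L929IRF8 9335 and 9359 against 8584 and 9218. The groups overlapped in L929, and in L929IRF8 both treated arrays were lower. Its log2 change was -0.05 in L929 with a 95% interval of -0.46 to 0.35, and -0.07 ± 0.15 (SE) in L929IRF8. Fdps, the farnesyl diphosphate synthase, read 8944 and 11283 against 9462 and 10355 in L929 and 10014 and 10211 against 10014 and 10667 in L929IRF8. Its log2 change was -0.02 in L929, with a 95% interval of -0.34 to 0.30, and 0.03 ± 0.12 in L929IRF8. Cyp51, the lanosterol demethylase, read 6266 and 6605 against 7036 and 7111 in L929, higher without overlap, and 6792 and 6893 against 7808 and 6577 in L929IRF8, overlapping.

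Pmvk, the phosphomevalonate kinase, read 439.5 and 531 units against 560.1 and 638 in L929 and 475 and 482 against 472 and 639.8 in L929IRF8. Its log2 change was 0.30 ± 0.18 in L929. In L929, 2 of the 16 sterol genes above the bound were higher without overlap (Pmvk and Cyp51) and 2 lower (Idi1 and Insig1), against 13.9% and 29.0% of genes above the bound. In L929IRF8 Idi1 and Scap were higher and Hmgcs1 and Dhcr7 lower, against 12.4% and 26.7%. On the probes standing for them, the remaining enzymes between squalene and cholesterol (Sqle, Lss, Nsdhl, Hsd17b7, Ebp and Tm7sf2) overlapped between treatments in both lines. Mvd, the mevalonate diphosphate decarboxylase, did so too. On the same probes, the log2 changes of the 8 squalene-to-sterol enzymes ran from -0.15 to 0.18 in L929 and from -0.40 to 0.23 in L929IRF8. The Nsdhl probes differed. ILMN_2594521 read 472 and 719 units against 728 and 818 in L929, and 460 and 605 against 655 and 704.5 in L929IRF8. It was higher without overlap in both, with log2 changes of 0.40 and 0.36. ILMN_2725402, standing for the gene, gave 0.09 and 0.23, ILMN_2594525 0.14 and 0.19, and ILMN_2958207 0.03 and -0.10, all overlapping.

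The 95% interval of the IFNβ change lay within 1 log2 unit of 0, on the offset log2 scale, for 20 of the 23 genes above the bound in L929 and 16 of 23 in L929IRF8. For the average over both lines it did so for all 16 sterol genes and 6 of 7 fatty acid genes, Scd2 being the exception. For genes near the bound this scale understates the fold, as for Lpin1, so it sets no limit on their fold.

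**Figure D3:**
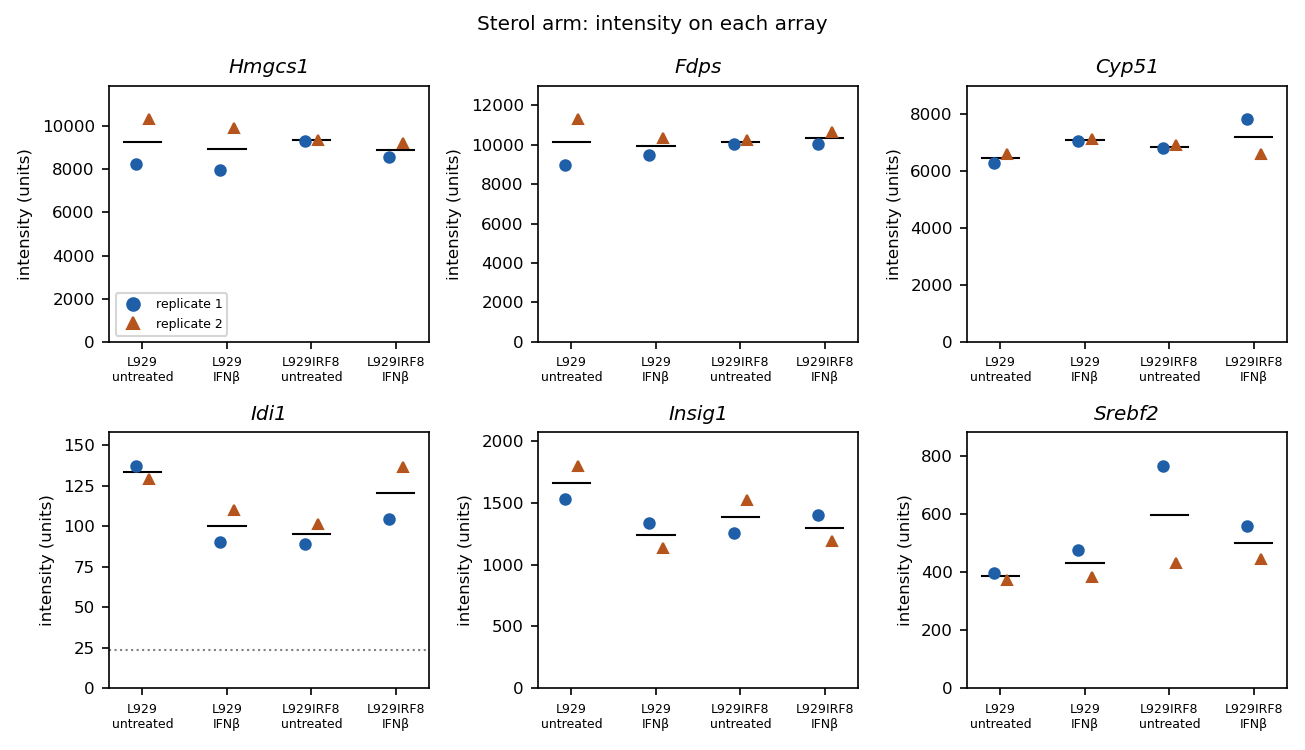
Deposited intensity (units, linear axis from 0) of 6 sterol-arm genes on each of the 8 arrays, by group; circles are replicate 1, triangles replicate 2, bars the group mean of 2 arrays, and the dotted line in the Idi1 panel the background bound of 23.7. Idi1 is lower after IFNβ in L929 and higher in L929IRF8, and 1 untreated L929IRF8 array of Srebf2 stands above the other 7.

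Idi1, the isopentenyl diphosphate isomerase, had opposite signs in the lines. Its probe (ILMN_2590923) read 137 and 129 units on untreated L929 arrays and 90.2 and 109.8 after IFNβ. In L929IRF8 it read 88.9 and 101 untreated and 104 and 137 after IFNβ. The 2 untreated L929 arrays lay above the treated ones, and the 2 untreated L929IRF8 arrays below theirs, with 101 and 104 the nearest pair. The change was -0.37 ± 0.15 log2 units (SE) in L929 (1.34-fold lower, limma adjusted p = 0.555) and 0.29 ± 0.15 in L929IRF8 (1.26-fold higher, limma adjusted p = 0.720). The difference between the lines, tested as an interaction, was 0.66 ± 0.21 with an unadjusted limma p of 0.0295 and an adjusted p of 0.901. It did not pass. Of the genes above the bound, 0.897% were lower in L929 and higher in L929IRF8 without overlap.

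The SREBP regulators were each represented by a probe above the bound. Insig1 read 1529 and 1798 units against 1337 and 1134 in L929, lower without overlap, and 1255 and 1520.2 against 1405 and 1191 in L929IRF8, overlapping. Its log2 change was -0.42 ± 0.16 in L929 (1.35-fold lower, limma adjusted p = 0.501) and -0.09 ± 0.16 in L929IRF8. Of its other probes, ILMN_2606693 gave -0.29 and -0.18 and ILMN_2895388 gave -0.34 and 0.07, so the sign in L929 was shared by all 3 probes above the bound, and that in L929IRF8 was not. The fourth was below the bound.

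Srebf2 read 398 and 373 units on untreated L929 arrays and 477 and 384 after IFNβ, and in L929IRF8 766 and 429.8 against 558 and 444. The array at 766 was above the other 7. Its log2 change was 0.15 ± 0.30 in L929 and -0.20 ± 0.30 in L929IRF8, with overlap in both lines. Scap read 245 and 202 against 235 and 208 in L929, and 232 and 222 against 244 and 235 in L929IRF8, a log2 change of -0.01 ± 0.10 and 0.07 ± 0.10. Dhcr7, the reductase of the last step to cholesterol, read 126 and 108 against 120.2 and 89.4 in L929 and 182 and 113 against 109.8 and 99.6 in L929IRF8, where its log2 change was -0.40 ± 0.25.

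The second question was how cells labelled with ectopic IRF8 differ from L929 in these genes. No gene passed between the untreated lines (0 of 25, limma, against 0.0156% of all probes), and 1 of 25 had an unadjusted p under 0.05, against 5.52% of probes and 2.77% lower. That gene was Idi1, lower in L929IRF8 by 1.40-fold (log2 -0.43 ± 0.15 SE, limma adjusted p = 0.854). Cyp51 and Srebf2 were higher and Idi1 and Insig1 lower without overlap, 2 of 23 genes each way, against 15.6% and 14.0% of genes above the bound. The log2 difference of Srebf2 was 0.56 ± 0.30 (limma adjusted p = 0.967), that of Insig1 -0.26 ± 0.16, of Acly -0.10 ± 0.07 and of Dhcr7 0.26 ± 0.25. The median difference was 0.01 in the sterol arm and -0.01 in the fatty acid arm. The untreated arrays are also the reference of the IFNβ comparisons, so the values of Idi1 in the 2 kinds of comparison are not independent.

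After IFNβ no gene passed between the lines (0 of 25, limma, against 0.00389% of probes) and 0 of 25 had an unadjusted p under 0.05, against 4.99%. Acly alone did not overlap, lower in L929IRF8 with a log2 difference of -0.08 ± 0.07, against 13.2% of genes above the bound lower and 11.9% higher. The differences of Idi1 (0.23 ± 0.15), Lpin1 (-0.20 ± 0.16), Scap (0.11 ± 0.10) and Acaca (0.09 ± 0.09) had adjusted limma p-values of 1.0. The medians were 0.06 in the sterol arm and 0.00 in the fatty acid arm.

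**Figure D4:**
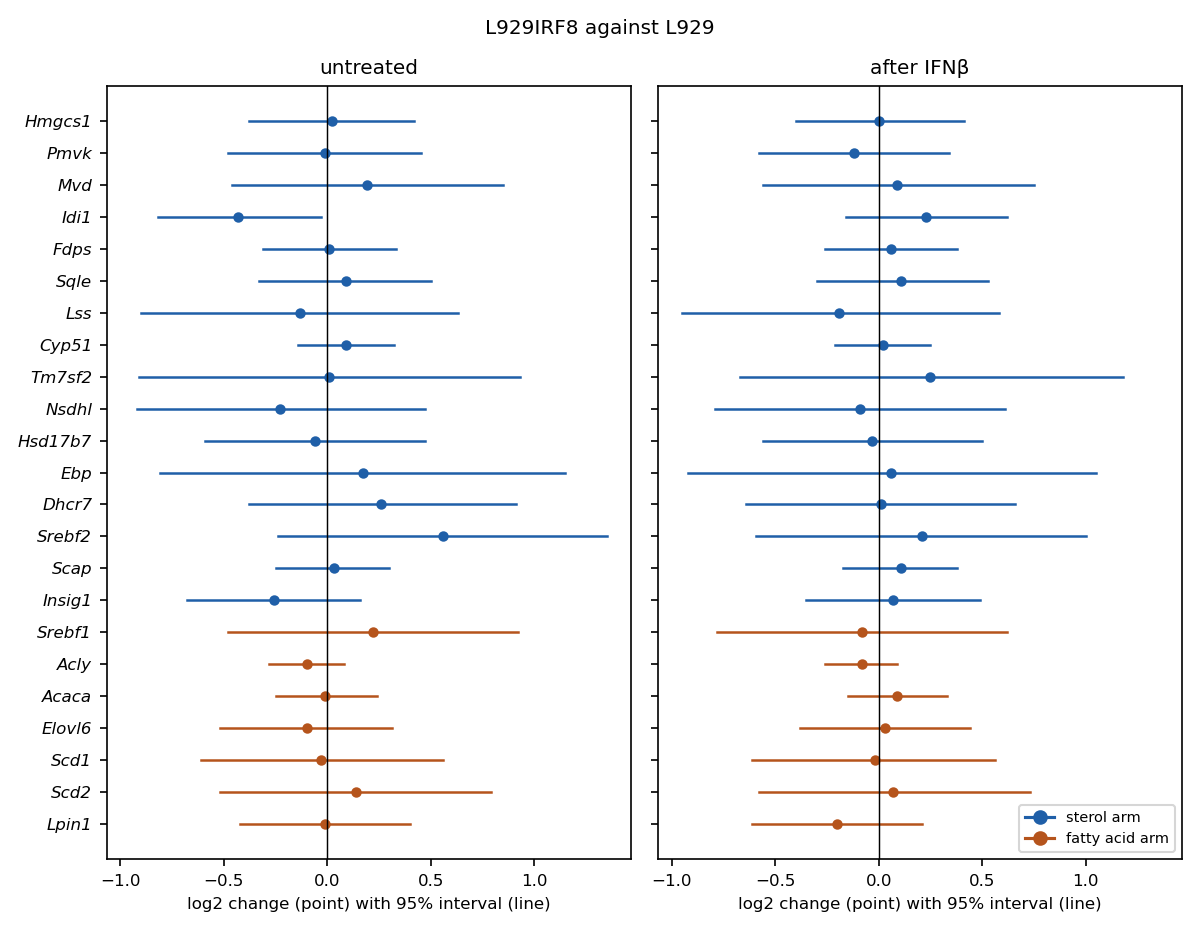
Log2 difference of L929IRF8 against L929 for the 23 genes above the background bound, untreated (left) and after IFNβ (right). Points are limma coefficients (2 arrays a group), lines their 95% intervals; blue marks the sterol arm and orange the fatty acid arm. The interval of Idi1 in the left panel, -0.82 to -0.03, is the only one that leaves out 0.

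The interaction, the IFNβ change in L929IRF8 minus that in L929, called 0 of 25 genes (limma, against 0.00389% of probes), and 1 of 25 had an unadjusted p under 0.05, against 4.77%. That gene was Idi1. The estimates for Insig1 (0.33 ± 0.23 SE), Lpin1 (-0.19 ± 0.22), Srebf2 (-0.35 ± 0.43) and Srebf1 (-0.30 ± 0.38) had adjusted p-values of 1.0. The interval lay within 1 log2 unit of 0 for 14 of the 23 genes above the bound, fewer than in the other comparisons, since 4 group means enter each estimate.

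The arrays were also compared by replicate number. In 5 of the 23 genes above the bound the 4 replicate 1 arrays did not overlap the 4 replicate 2 arrays, or 21.7%, against 16.6% of all genes above it, a share near that of the array as a whole. Of the 5, 3 were higher in replicate 1 and 2 lower, where 7.99% and 8.62% of genes were. Ebp, the sterol isomerase, was 2684 to 3457 units on replicate 1 arrays and 1965 to 2174 on replicate 2 arrays, a 1.48-fold difference. Srebf1 (1.35-fold) and Hsd17b7, a sterol ketoreductase (1.22-fold), were higher in replicate 1, and Lss, the lanosterol synthase (1.33-fold), and Fdps (1.11-fold) higher in replicate 2. Arrays split in this way by replicate cannot separate by treatment as well, so these 5 could not be among the genes that did.

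**Figure D5:**
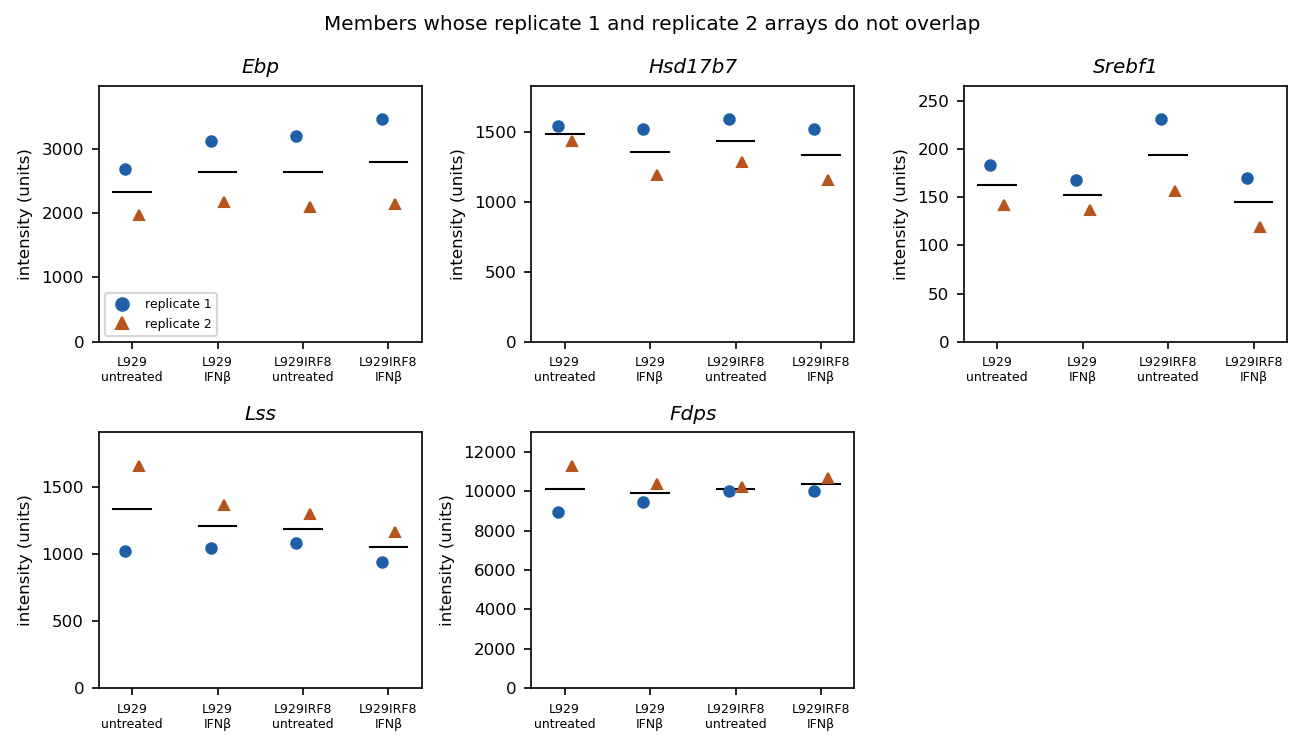
Deposited intensity (units, linear axis from 0) of the 5 genes whose replicate 1 arrays (circles) and replicate 2 arrays (triangles) do not overlap, by group; bars are group means of 2 arrays. For Ebp the circles lie at 2684 to 3457 and the triangles at 1965 to 2174 whatever the line or treatment.

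Of the 27 further genes of the same pathways that were on the array, 20 were above the bound. An unadjusted limma p under 0.05 was found for 2 of the 27 in L929, against 9.88% of all probes. In L929IRF8 it was found for 3, against 9.78%. None of the 27 passed in L929 (limma, against 1.28% of all probes), and 1 rose and 0 fell in L929IRF8 (against 1.07%). That gene was Npc2, the lysosomal carrier that hands cholesterol to the membrane: 1044 and 929.8 units untreated against 1656 and 1699.8 after IFNβ, 1.70-fold higher (log2 0.76 ± 0.07 SE, limma adjusted p = 0.0214). In L929 it read 1037 and 1028 against 1252 and 1336, also without overlap (1.25-fold, 0.32 ± 0.07, limma adjusted p = 0.178), and the difference between the lines did not pass (0.44 ± 0.09, limma adjusted p = 0.575). Npc2 in L929IRF8 no longer passed under the replicate block, at 0.0573, nor when an IFNβ-treated L929IRF8 array or any of the 4 L929 arrays was left out, at 0.0650 to 0.0881. Its adjusted p ran from 0.0122 to 0.234 over all alternatives, the highest with the 4 L929IRF8 arrays alone. Averaged over the lines, Npc2 rose by 0.54 ± 0.05 (limma adjusted p = 0.0127, and 0.00746 to 0.0563 over the alternatives), but it did not pass when either untreated L929 array was left out, at 0.0563 and 0.0533.

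Sc5d, the sterol C5-desaturase of late cholesterol synthesis, was singled out after its values were seen. It read 208 and 164 units untreated against 108.8 and 83.6 after IFNβ in L929, and 207 and 159 against 121 and 100.2 in L929IRF8. All 4 treated arrays were under all 4 untreated arrays. The log2 change was -0.85 ± 0.20 in L929 (1.93-fold lower) and -0.65 ± 0.20 in L929IRF8 (1.65-fold lower), and neither passed (limma adjusted p = 0.245 and 0.393). With the replicate block both passed, at 0.0105 and 0.0235, where 1.33% of all probes passed in L929 (0.342% lower) and 1.14% in L929IRF8 (0.257% lower). Averaged over the lines, the change was -0.75 ± 0.14 and did not pass (limma adjusted p = 0.105). Sc5d passed among probes above the bound, at 0.0225, where 6.09% passed and 1.95% were lower. With the block added to that filter it passed at 0.000982, where 12.3% passed and 6.34% were lower. Over all alternatives its adjusted p for the average ran from 0.000982 to 0.230.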

How the data were processed

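Total RNA from 8 samples was hybridised to Illumina mouse bead arrays. The deposited table holds linear intensity values for 25697 probes, with 28.1% to 28.3% of values below 0 on each array and sorted values that differ by at most 1.7 units between arrays, as background subtraction and quantile normalization by the authors would leave them; the tool is not given in the sources used here. Probes were named from the platform annotation (23978 probes with 1 symbol). Columns were matched to samples by title, and none was left over.

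Negative values were replaced by 0 and every value was put on the scale log2(value + 16). A limma 3.58.1 model (R 4.3.3) with 4 group coefficients was fitted to all probes and 8 arrays, with moderated tests on 4.68 degrees of freedom and Benjamini-Hochberg adjustment over all probes at 0.05. A change is on this offset log2 scale, which understates dim genes. Folds are ratios of geometric means of values raised to the background bound, so that they need not equal 2 to the log2 change. With 2 arrays against 2, an exact permutation test cannot go below p = 0.333, so none was used; the number of arrays limits precision. Levels of different probes were not compared. Fit and adjustment were tested on simulated data.

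Genes named were, for each of the 5 comparisons, those passing, and where under 3 passed the 5 with the smallest p; the 3 with the highest mean in each arm; Srebf1, Srebf2, Scap and Insig1; and, from other pathway genes, those passing. The other genes named were chosen after their values were seen. Members, lists and tests were chosen with earlier results of these data known. The average over lines and 1 combined setting were added after seeing the data. Alternatives were the offset (1 and 64), values raised to the bound, probes above the bound only, an intensity trend, the replicate block, fewer arrays, median centring, all probes of a gene, and each array left out.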

Additional observations from a re-analysis of the deposited data

Results flagged for a closer look

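Idi1 drew attention because every IFNβ array moved one way in L929 and the other way in L929IRF8. The IFNβ change in L929IRF8 minus that in L929 was 0.66 ± 0.21 log2 units (SE), 0.73 for replicate 1 and 0.59 for replicate 2. The limma test of this difference did not pass after adjustment over all probes (adjusted p = 0.901, and 0.375 to 1.0 over the alternatives). The unadjusted p is the smallest of the 25 genes in that comparison, and 4.77% of all probes had one under 0.05. The groups of 2 arrays were too small for a check of single arrays against their group.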

How the results depend on the processing

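In the 5 comparisons of the design, no gene of the set was called under any alternative run, the replicate block included (0 of 25 each). In the average over lines, 1 gene was called among probes above the bound (Lpin1) and 2 with the replicate block added to that filter. Same-numbered replicates deviated together in all 6 pairs of groups (correlations 0.481 to 0.559), but the labels do not say that a number marks a shared batch and there are only 2 numbers, so the block stayed an alternative. The fatty acid median for IFNβ was -0.37 in L929 with an offset of 1 (-0.33 for the average) and -0.36 in L929IRF8 over probes above the bound, with or without the block. The sterol median in L929IRF8 was -0.01 over probes above the bound, with or without the block, and 0.03 over all probes of a gene, where that for the average was 0.00. Leaving out 1 array gave fatty acid medians of -0.40 to -0.23 in L929, -0.43 to -0.13 in L929IRF8, -0.36 to -0.16 for their average, -0.10 to 0.08 between untreated lines, -0.12 to 0.15 after IFNβ and -0.15 to 0.14 for the interaction, and sterol medians of -0.09 to 0.09, -0.04 to 0.02, -0.06 to 0.00, -0.03 to 0.12, 0.00 to 0.10 and -0.11 to 0.06. Without untreated L929IRF8 replicate 1 the line difference of Dhcr7 turned to -0.04 and the interaction of Srebf2 to 0.06, and without IFNβ-treated L929IRF8 replicate 1 the difference of Acaca after IFNβ turned to -0.04 (without replicate 2 of the same group: 0.57, -0.75 and 0.22); the array left out is in each case 1 of 2 behind a group mean. Median centring changed no value. Genes near the bound (Lpin1 and Tm7sf2) are limited by signal over background. Idi1 and Dhcr7 were further from it but still dim, at 88.9 to 137 and 89.4 to 182 units.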
